A study of Mus musculus with 12 samples.

Results

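The genes described here are 10 that mark homeostatic microglia and the wider myeloid lineage: Csf1r, Cx3cr1, P2ry12, P2ry6, Tgfbr1, Mertk, Adgre1, Itgam, Aif1 and Spi1. They were chosen by symbol for their known roles, with earlier results of these data at hand, and each matched 1 of the 30994 gene rows of the count tables. The cells were SIM-A9, a mouse microglial line of the C57BL/6 strain kept in culture, so all values come from 1 line and not from microglia in tissue. Every culture, controls included, first received 10 µM polymyxin B, a peptide antibiotic able to neutralise endotoxin, for 1 h. Cultures then received either 10 µM C13, which the series title names as a MOK inhibitor (MOK is a protein kinase), or DMSO alone for 1 h. Next, either TDP-43 aggregates or a sham preparation was added to 5 µg/mL, and after 2.5 h 4-thiouridine was added to 100 µM for the last 90 min. The 4 groups are called DMSO with sham and C13 with sham (no TDP-43), and DMSO with TDP-43 and C13 with TDP-43. Each had 3 libraries, which the labels call biological replicates without saying how the cultures were separated. P-values therefore measure only the spread between these libraries.

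Microglia, the macrophages that reside in the brain, arise from yolk sac precursors. Their survival depends on signalling through the receptor CSF1R, and their resting, or homeostatic, program on TGF-beta and on the transcription factor PU.1, which Spi1 encodes. In tissue, CX3CR1 receives the neuronal chemokine fractalkine, P2RY12 senses nucleotides that draw microglial processes to injury, P2RY6 senses UDP and promotes phagocytosis, and MERTK recognises dying cells. Microglia placed in culture are known to lose part of this program, so the question for the line was which of these genes it keeps.

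PU.1 binds purine-rich sites around a GGAA core. Stretches of 250 bases before the RefSeq start (build GRCm38.p6) are shown for a pair of genes that the line expressed, Itgam and Aif1, and for P2ry12, which it expressed unevenly. The letters GAGGAA and their reverse complement TTCCTC are in capitals, and each sequence runs 5′ to 3′ on the gene's strand. GGAA cores with other flanking letters stay in lower case, and each of the sequences, that of P2ry12 included, holds such a core.
Itgam (chr7:128062390-128062639, plus strand): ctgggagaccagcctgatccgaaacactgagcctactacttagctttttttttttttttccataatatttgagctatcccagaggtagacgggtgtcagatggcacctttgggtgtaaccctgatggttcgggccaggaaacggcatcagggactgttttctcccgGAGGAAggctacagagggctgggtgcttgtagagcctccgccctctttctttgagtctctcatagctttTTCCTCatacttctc
Aif1 (chr17:35176053-35176302, minus strand): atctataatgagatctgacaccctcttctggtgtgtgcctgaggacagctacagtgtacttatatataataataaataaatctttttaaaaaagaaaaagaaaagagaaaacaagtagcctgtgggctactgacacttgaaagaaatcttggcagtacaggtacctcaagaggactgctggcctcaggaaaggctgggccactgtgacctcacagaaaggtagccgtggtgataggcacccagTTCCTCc
P2ry12 (chr3:59262986-59263235, minus strand): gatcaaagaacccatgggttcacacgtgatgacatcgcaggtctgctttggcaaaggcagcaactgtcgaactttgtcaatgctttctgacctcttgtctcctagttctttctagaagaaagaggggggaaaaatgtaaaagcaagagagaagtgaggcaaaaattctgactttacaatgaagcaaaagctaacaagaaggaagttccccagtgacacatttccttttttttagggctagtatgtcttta
Itgam held the letters at 2 places, starting 84 and 15 bases before the start, Aif1 at 1 place, 7 bases before it, and P2ry12 at 0. The steadily expressed Cx3cr1 and the low Mertk also had 0, and of the 2 entries for Tgfbr1 1 had 0 and the other 1 match. Promoters of 6 of the 10 genes were in the RefSeq table used here. Among all 32851 promoter entries, each limited to the same 250 bases, 23.3% held these letters on either strand. Positions are relative to the RefSeq start, which can differ from the GENCODE gene models given below. The GENCODE model of Aif1 reaches position 35176068, inside the window shown, so its marked letters lie within that model. The model of P2ry12 ends at 59262871, outside its window. A match is only a match of letters, and its absence from a window says nothing about binding.

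Depth and library differences were as follows. Total reads per library numbered 17436397 to 41779882. Between 552042 and 2722812 of them were in the nascent table, which is meant to hold RNA made during the 4-thiouridine pulse. On the first principal component of total RNA, which held 18.9% of the variance, C13 with sham replicate 2 and C13 with sham replicate 3 stood at opposite ends. Mitochondrial ribosomal RNA took 1.17% to 3.70% of total reads, with the highest share in C13 with sham replicate 3. Levels below are CPM, read counts relative to library size, scaled by the TMM method of edgeR. Reads came from the 3′ ends of transcripts, so a level was not divided by gene length and compares 3′-end reads between genes. In a culture, fewer cells expressing a gene and less RNA per cell cannot be told apart.

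SIM-A9 cells kept 8 of the 10 identity genes, defined as a mean of at least 1 CPM of total RNA in each of the 4 groups, while 31.4% of all gene rows met the same rule. The count was 7 without C13 with sham replicate 3, since P2ry12 met the rule in that group only through this library. The 31.4% includes many rows with few or no reads. In number, 9731 rows met the rule, and 11827 genes, all 10 members among them, passed the filter on low counts in total RNA. Most expressed genes thus met the rule, and the count of 8 does not set the identity genes apart from them. The levels fell into a high set and a low set. Csf1r, Itgam, Spi1 and Adgre1 had means of 66.9 to 168 CPM over the 12 libraries, Cx3cr1 and Aif1 of 23.1 and 15.6 CPM, and Tgfbr1 and P2ry12 of 5.80 and 3.83 CPM. Mertk and P2ry6, with 1.56 and 0.671 CPM, missed the rule. In the order of levels, only Adgre1 and Cx3cr1 were neighbours whose values did not overlap, with a lowest Adgre1 value of 40.5 CPM and a highest Cx3cr1 value of 28.7 CPM. Csf1r nevertheless exceeded Itgam in 12 of 12 libraries, whereas Itgam exceeded Spi1 in 7 of 12 and P2ry12 exceeded Mertk in 6 of 12. The gap between Adgre1 and Cx3cr1 holds for the counts as deposited. All nascent counts of Adgre1 and most of its total counts were even numbers. Whether part of its reads was counted more than 1 time was not tested.

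**Figure D1:**
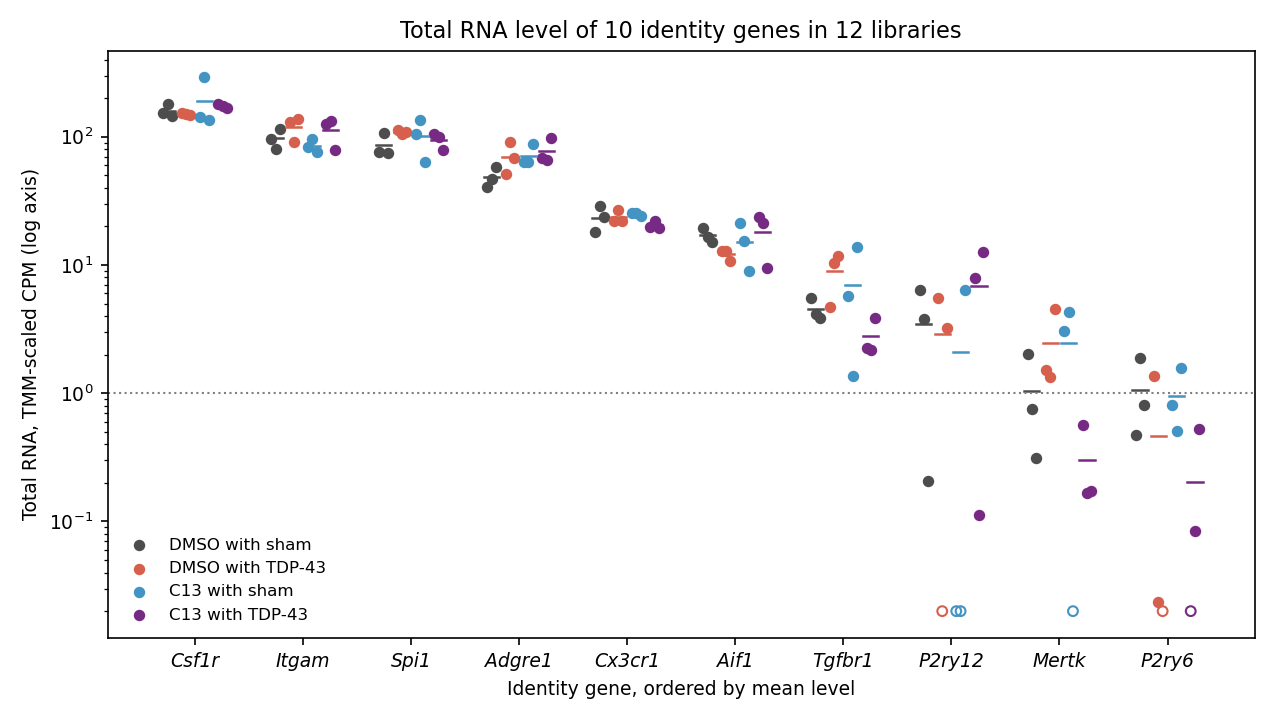
Total RNA level of each identity gene in TMM-scaled CPM on a log axis, with 1 point per library, coloured by group, and a short line at each group's mean. The dotted line marks 1 CPM, and open circles at the bottom stand for libraries with 0 reads. The 5 genes on the left stay above 17.9 CPM in all 12 libraries, and P2ry12, Mertk and P2ry6 have 3, 1 and 2 libraries at 0.

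The spread between libraries was widest for the 4 lowest genes. The coefficient of variation was 14.03% for Cx3cr1, 20.7% for Spi1, 22.3% for Itgam, 24.4% for Csf1r, 26.3% for Adgre1 and 31.6% for Aif1. It was 69.3% for Tgfbr1 and 96.1% to 106% for P2ry6, Mertk and P2ry12. Over all tested genes, its median was 22.1% among 2383 genes at 50 to 200 CPM, 30.7% among 3981 at 10 to 50 CPM and 63.5% among 3723 at 0.5 to 10 CPM. Cx3cr1 was thus steadier than the lower quartile of 24.3% for genes at 10 to 50 CPM. P2ry12, Mertk and P2ry6 were above the upper quartile of 91.5% for genes at 0.5 to 10 CPM. That band is wide, and Mertk and P2ry6, at 1.56 and 0.671 CPM, lie near its lower end. Since the spread rose as levels fell, the comparison does not show these genes to be uneven for their own level. These quartiles describe other genes of the same libraries and are not a test.

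Among the receptors, Csf1r, which binds the growth factors CSF1 and IL-34, had the highest level. Total Csf1r (GRCm38 chr18:61100598-61132149, plus strand) had 153, 179 and 145 CPM in DMSO with sham replicates 1 to 3, 152, 149 and 148 CPM in DMSO with TDP-43, 144, 289.9 and 136 CPM in C13 with sham, and 179, 174 and 167 CPM in C13 with TDP-43. Apart from C13 with sham replicate 2, at 289.9 CPM, its values lay within 136 to 179 CPM. C13 with TDP-43 lay above DMSO with TDP-43 without overlap, by 0.21 on the log2 scale with SE 0.25 (edgeR, adjusted p = 0.975). Averaged over the drug arms, the log2 fold change with aggregates was -0.11 with SE 0.18 (edgeR, adjusted p = 0.995), and it was 0.12 without C13 with sham replicate 2. Csf1r overlaps Hmgxb3 on the opposite strand, and whether the counting used strand is not given in the sources used here.

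Of the CSF1R pathway list, which includes Csf1r itself, 15 of 18 genes were kept by the same rule. Csf1, which encodes 1 of its ligands, had 202 ± 56.2 CPM, while Il34, the other ligand and named here after its values were seen, had 0.374 ± 0.537 CPM (SD, n = 12). Pik3cd, a lipid kinase subunit of leukocytes, had 937 ± 181 CPM, the adaptor Grb2 374 ± 47.2 CPM, and Csf2rb, a receptor chain for related cytokines, 203 ± 56.7 CPM (SD, n = 12). Of the 17 tested in total RNA, edgeR called 0 in either averaged comparison. At an unadjusted p under 0.05 there was 1 lower gene with aggregates, against 4.73% of all genes in either direction, and there were 2 higher genes with C13, against 4.08%.

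Cx3cr1, the fractalkine receptor, was present at an even level. Its total RNA had 17.9 to 28.7 CPM over all 12 libraries, with group means without and with aggregates of 23.4 ± 5.37 and 23.6 ± 2.91 CPM under DMSO and of 25.1 ± 0.757 and 20.4 ± 1.58 CPM under C13 (SD, n = 3). Under C13, the values with aggregates lay below those with sham without overlap, a log2 fold change of -0.30 with SE 0.27 (edgeR, adjusted p = 0.822). Its gene model (GRCm38 chr9:119901616-120069879, minus strand) spans 3 other genes of the same strand, Gorasp1, Csrnp1 and Xirp1, through 1 of its 3 annotated transcripts. Gorasp1 and Csrnp1 had 1471 and 1563 total reads of their own against 8755 for Cx3cr1, so part of the Cx3cr1 count is uncertain. On the opposite strand the same transcript reaches Wdr48, which had 86668 total and 2332 nascent reads, and the use of strand in counting is unknown here. Cx3cl1, the gene of its ligand fractalkine, had 11.1 ± 2.74 CPM (SD, n = 12) and was named for that role after its values were seen.

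Tgfbr1, which encodes the kinase receptor of TGF-beta (GRCm38 chr4:47353222-47414931, plus strand), differed more between libraries. It had 5.58, 4.11 and 3.86 CPM in DMSO with sham, 4.68, 10.4 and 11.8 CPM in DMSO with TDP-43, 5.72, 1.36 and 13.8 CPM in C13 with sham, and 2.25, 2.18 and 3.88 CPM in C13 with TDP-43. With aggregates, every C13 library lay below every DMSO library, whereas with sham the C13 libraries held both the lowest and the highest of all values. The log2 fold change for C13 against DMSO with aggregates was -1.69 with SE 0.70 (edgeR, adjusted p = 0.833), and that without aggregates was 0.63 with SE 0.68 (edgeR, adjusted p = 0.978). The interaction, which tests the difference between them, was -2.32 on the log2 scale with SE 0.98 (edgeR, adjusted p = 0.549). Averaged over the drug arms, the log2 fold change with aggregates was -0.17, and without C13 with sham replicate 3 it was 0.33.

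Of the TGF-beta pathway list, which includes Tgfbr1, 16 of 23 genes were kept. Nrros, which anchors latent TGF-beta on microglia, had 503 ± 101 CPM, the highest of the list, followed by the integrin subunit Itgav with 49.4 ± 13.4 CPM, the shared signal carrier Smad4 with 48.9 ± 6.74 CPM and the repressor Ski with 45.5 ± 13.9 CPM (SD, n = 12). Tgfb1, the ligand, and Tgfbr2, the partner receptor, named for those roles after their values were seen, had 2.67 ± 1.14 and 14.7 ± 5.88 CPM (SD, n = 12). With aggregates averaged over the drug arms, 4 of 18 tested members of the list had a positive and 14 a negative log2 fold change in total RNA, with a median of -0.11 against -0.01 over all 11827 genes. Under DMSO alone 10 were positive and 8 negative, with a median of 0.09, and under C13 alone 3 and 15, with a median of -0.36. For C13 averaged over the aggregate arms 8 were positive and 10 negative. In both averaged comparisons edgeR called 0 of them. At an unadjusted p under 0.05 there was 1 lower gene for aggregates, where 4.73% of all genes passed, and 1 higher gene for C13, where 4.08% did.

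The nucleotide receptors P2ry12 and P2ry6 were low and uneven. P2ry12 (GRCm38 chr3:59216272-59262871, minus strand) had 6.34, 3.79 and 0.207 CPM in DMSO with sham, 5.50, 0 and 3.20 CPM in DMSO with TDP-43, 0, 0 and 6.34 CPM in C13 with sham, and 7.87, 0.112 and 12.6 CPM in C13 with TDP-43. Thus 3 libraries had 0 reads, which 3 counts of their depth would put at up to 0.173 CPM, while 7 libraries had at least 1 CPM, and all 4 groups overlapped. All 12 of its counts were multiples of 4, so a level of 3.83 CPM would be 0.958 CPM if each read had been counted 4 times. In that case 3 reads would be more than 3 counts, and the limit of 0.173 CPM would be too low for the values as listed. Such shared factors of at least 2 were found in 1917 of the 9932 genes that averaged more than 50 total reads per library, and the sources used here give no reason for them.

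P2ry6 (GRCm38 chr7:100937630-100974649, minus strand) had 0 to 1.89 CPM, with 2 libraries at 0 and 3 at 1 CPM or more. Averaged over the other treatment, the log2 fold changes were 0.71 (SE 1.32) with aggregates and 0.29 (SE 1.31) with C13 for P2ry12, and -1.71 (SE 1.39) and -0.65 (SE 1.35) for P2ry6, with edgeR adjusted p of 0.948 to 0.999. The sign for P2ry12 with C13 turned when any of 3 libraries was left out, to -4.22 without C13 with sham replicate 3, to -0.12 without C13 with TDP-43 replicate 3 and to -0.001387 in the absence of DMSO with TDP-43 replicate 2. The errors exceed a 2-fold change, so changes of that size were not detectable. Of the purinergic list, which includes both receptors, 10 of 20 genes were kept, led by the ATP-gated channels P2rx4 and P2rx7 with 58.1 ± 12.95 and 41.7 ± 15.0 CPM, the ectonucleotidase Entpd1 with 40.0 ± 9.47 CPM and the potassium channel Kcnk13 with 20.6 ± 13.8 CPM (SD, n = 12).

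Mertk, the engulfment receptor (GRCm38 chr2:128698956-128802894, plus strand), was detected in 11 of 12 libraries at 4.54 CPM or less. It had 2.03, 0.758 and 0.311 CPM in DMSO with sham, 1.53, 1.34 and 4.54 CPM in DMSO with TDP-43, 3.06, 4.28 and 0 CPM in C13 with sham, and 0.562, 0.168 and 0.174 CPM in C13 with TDP-43. As for Tgfbr1, C13 with TDP-43 lay below DMSO with TDP-43 without overlap, and the other groups overlapped. The log2 fold change was -3.03 with SE 1.59 (edgeR, adjusted p = 0.839), with an interaction of -4.27 with SE 2.16 (edgeR, adjusted p = 0.658). These C13 with TDP-43 values rest on 6 to 14 reads per library.

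The related receptor Axl, named after its values were seen, had 33.8 ± 9.14 CPM (SD, n = 12), above Mertk in level, while the third member of that receptor family, Tyro3, had 0 reads in all 12 libraries, which allows up to 0.00797 CPM over them. Their bridging ligands Gas6 and Pros1, also named after their values were seen, had 0.0333 and 0.255 CPM. Of the list of these receptors and engulfment genes, Mertk included, 10 of 20 were kept, led by Mfge8, which bridges dying cells to integrins, with 742 ± 140 CPM, and by the GTPase Rac1 with 586 ± 64.9 CPM (SD, n = 12).

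The macrophage surface genes Itgam and Adgre1 were clearly expressed. Itgam, which encodes the CD11b chain of complement receptor 3 (GRCm38 chr7:128062640-128118491, plus strand, promoter shown above), had 96.3, 79.9 and 115 CPM in DMSO with sham, 130.5, 91.2 and 137 CPM in DMSO with TDP-43, 83.2, 95.3 and 76.3 CPM in C13 with sham, and 126, 132 and 78.8 CPM in C13 with TDP-43. Higher values with aggregates were seen in 2 libraries of each drug arm, and the groups overlapped. Averaged over the drug arms the log2 fold change was 0.35 with SE 0.17 (edgeR, adjusted p = 0.948). Itgam shares its strand with the overlapping gene Gm49368, which had 59 total reads.

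Adgre1, which encodes the macrophage antigen F4/80 (GRCm38 chr17:57358691-57483527, plus strand), was lowest in DMSO with sham. It had 40.5, 46.6 and 58.1 CPM there, 51.6, 90.4 and 67.9 CPM in DMSO with TDP-43, 63.3, 63.7 and 87.2 CPM in C13 with sham, and 68.7, 65.9 and 98.5 CPM in C13 with TDP-43. The C13 with sham values lay above all DMSO with sham values, a log2 fold change of 0.56 with SE 0.26 (edgeR, adjusted p = 0.813), while DMSO with TDP-43 overlapped DMSO with sham at 0.53 with SE 0.26 (edgeR, adjusted p = 0.999). These comparisons share the same 3 DMSO with sham libraries.

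Aif1, which encodes the actin-bundling protein IBA1 used to stain microglia (GRCm38 chr17:35170991-35176068, minus strand), ranged from 9.03 to 23.9 CPM. With DMSO, its values with aggregates, 12.8, 12.8 and 10.7 CPM, lay below those with sham, 19.6, 16.6 and 15.0 CPM, a log2 fold change of -0.50 with SE 0.40 (edgeR, adjusted p = 0.999). With C13 the values overlapped and the log2 fold change was 0.26 with SE 0.39 (edgeR, adjusted p = 0.934). All of its counts were multiples of 3, so its level would be 5.21 CPM if each read had been counted 3 times. Of the wider list of macrophage surface and adhesion genes, which includes Itgam, Adgre1 and Aif1, 22 of 25 were kept, led by Laptm5, Fcer1g, Fcgr3 and Cd68, genes of lysosomes and of Fc receptors, with 1199, 815, 341 and 271 CPM. Itgb2, whose protein pairs with that of Itgam and which was named for that role after its values were seen, had 30.1 ± 9.19 CPM (SD, n = 12) and a log2 fold change of 0.70 with aggregates averaged over the drug arms with SE 0.21 (edgeR, adjusted p = 0.948).

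Spi1, the gene of PU.1 (GRCm38 chr2:91082390-91115756, plus strand), was expressed in every library. Its total RNA had 75.8, 107 and 74.7 CPM in DMSO with sham, 114, 105 and 109 CPM in DMSO with TDP-43, 104, 134 and 63.5 CPM in C13 with sham, and 105, 99.0 and 78.9 CPM in C13 with TDP-43. The lowest and the highest value both came from C13 with sham, in replicates 3 and 2, the libraries at the ends of the first principal component. With aggregates, C13 values lay just below DMSO values, with a log2 fold change of -0.21 with SE 0.26 (edgeR, adjusted p = 0.975). Of the list of myeloid transcription factors, which includes Spi1, 20 of 25 were kept. The list was led by Mef2c with 1730 ± 191 CPM, Irf5 with 170.1 ± 15.9 CPM, Mitf with 157 ± 34.2 CPM and Irf8 with 127 ± 20.3 CPM (SD, n = 12). Sall1, a factor specific to microglia among macrophages, had 2 reads in all 12 libraries together.

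The share of nascent reads separated the identity genes in another way than their total level. Of the 10 genes, 5 passed the filter on low counts in nascent RNA (Spi1, Csf1r, Cx3cr1, Adgre1 and Itgam), against 59.8% of the genes tested in total RNA. These 5 are also the highest in total RNA, so the filter itself followed the total level. Nascent reads made up 1.88% to 7.11% of whole libraries, with a median of 2.92%. For Spi1 this share was 7.23%, 12.4% and 7.69% in the libraries of DMSO with sham, 5.60%, 8.41% and 4.32% in those of DMSO with TDP-43, 6.31%, 8.91% and 5.54% in C13 with sham, and 8.20%, 7.74% and 8.05% in C13 with TDP-43. In 12 of 12 libraries the Spi1 share was above that of its own library, a pattern that 2.41% of the 11827 genes tested in total RNA had.

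Itgam stood at the other side. Its total level was close to that of Spi1, but its nascent share was 0% to 2.17%, below that of its own library in 12 of 12 libraries, as was found for 6.63% of tested genes. Summed over libraries, 273 of 38373 Itgam reads were nascent, 0.711% (95% Clopper-Pearson interval 0.630% to 0.801%), against 2747 of 35466 for Spi1, 7.75% (7.47% to 8.03%). Such intervals include only counting error, as if every counted read were a separate molecule. The share depends on how many labelled bases a 3′-end read holds, which was not measured here, so it ranks genes only roughly. The Tgfbr1 share was also below that of its library in 12 of 12 libraries, with 3 nascent of 2372 reads.

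**Figure D2:**
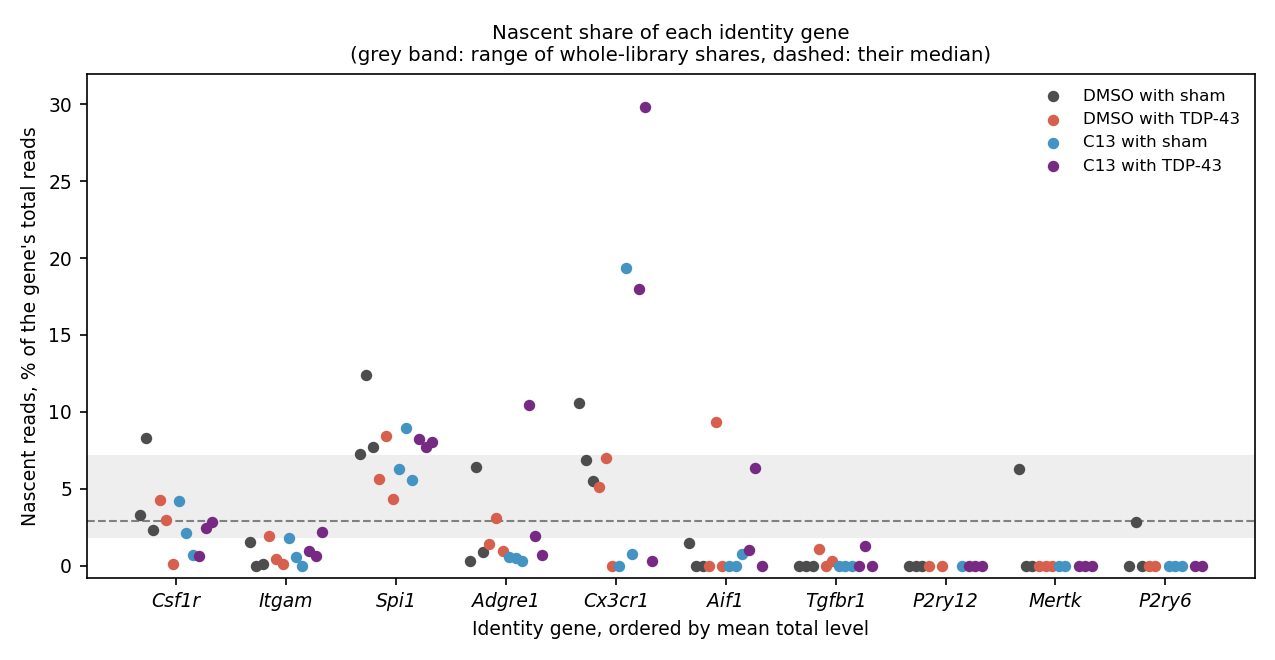
Nascent reads as a percentage of each identity gene's total reads, with 1 point per library with total reads of that gene, coloured by group. The grey band is the range of whole-library shares, 1.88% to 7.11%, and the dashed line their median. Spi1 points run from 4.32% to 12.4%, Itgam points stay at or under 2.17%, and Cx3cr1 points reach 29.8%.

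Cx3cr1 nascent reads were found in 10 of 12 libraries, at uneven shares. The share was 10.6%, 6.89% and 5.48% in the DMSO with sham libraries, and 5.13% and 6.97% in DMSO with TDP-43 replicates 1 and 2. It was 29.8% and 18.0% in C13 with TDP-43 replicates 2 and 1 and 19.3% in C13 with sham replicate 2, but 0% in C13 with sham replicate 1 and DMSO with TDP-43 replicate 3, 0.759% in C13 with sham replicate 3 and 0.301% in C13 with TDP-43 replicate 3. Its share was above that of its library in 7 of 12 libraries and below in 5. Of the genes that its model overlaps, Csrnp1 on the same strand had 267 nascent of 1563 total reads. Wdr48 on the opposite strand had 2332 nascent reads, against 718 for Cx3cr1. Whether such reads entered the Cx3cr1 counts was not tested. Csf1r had 0.0867% to 8.29%, above in 4 of 12. Adgre1 had 0.313% to 10.4% and was above in 1 of 12, and Aif1, with 0 nascent reads in 7 libraries, in 2 of 12. P2ry12 had 0 nascent reads among 1468, or 367 after division by their shared factor of 4, which allows a share of up to 0.817%. Mertk had 4 and P2ry6 had 2 nascent reads in all.

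In nascent RNA as in total RNA, no member passed any comparison of the groups. Errors were wider in nascent RNA. For aggregates averaged over drug arms, nascent SE was 0.38 for Spi1, 0.64 for Csf1r, 0.83 for Adgre1, 1.09 for Cx3cr1 and 1.17 for Itgam. In total RNA it was 0.17 to 0.19 for the same genes. For nascent Cx3cr1 and Itgam these errors exceed 1 on the log2 scale, so even changes of that size were not detectable. The smaller nascent errors of Spi1, Csf1r and Adgre1 do not mean that such changes were detectable. In counts simulated with 200 genes changed by aggregates, edgeR called 0% of 2-fold and 9.09% of 4-fold changes in nascent RNA. In simulated total RNA it called 42.9% and 77.1% of them. Over 7 comparisons in each table and 2 comparisons of nascent against other reads, edgeR called 0 of the 10 genes in total RNA and 0 of the 5 tested in nascent RNA, and DESeq2, run on the comparisons within each table, called 0 as well. Over all genes, edgeR called 0% in each comparison except aggregates averaged over drug arms in nascent RNA and in nascent against other reads, with 0.0141% each, whereas DESeq2 called 17 to 143 genes per comparison in total RNA and 4 to 75 in nascent RNA. At an unadjusted p under 0.05, the identity genes in total RNA were Tgfbr1 for C13 against DMSO with aggregates and Tgfbr1 for the interaction, 1 of 10 each, against 5.98% and 7.96% of all genes. For total RNA in the other comparisons the count was 0 of 10, where 4.36% of all genes passed for aggregates under DMSO, 8.84% for aggregates under C13, 6.1% for C13 with sham, 4.73% for aggregates averaged and 4.08% for C13 averaged.

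In nascent RNA, Adgre1 had an unadjusted edgeR p under 0.05 in 2 comparisons, 1 of the 5 genes tested, against 8.45% of all genes for aggregates under C13 and 5.59% for aggregates averaged over drug arms. In the other nascent comparisons 0 of the 5 did, where 3.19% of all genes did for aggregates under DMSO, 4.59% for C13 with aggregates, 6.89% for C13 with sham, 5.96% for C13 averaged and 7.59% for the interaction. For nascent against other reads it was 0 of 5, where 4.03% of genes did for aggregates and 4.01% for C13. Nascent Adgre1 had 3.30, 37.2 and 18.4 CPM in DMSO with sham, 23.4, 78.5 and 38.5 CPM in DMSO with TDP-43, 10.1, 10.6 and 23.8 CPM in C13 with sham, and 217, 37.2 and 29.0 CPM in C13 with TDP-43. Under C13 the values with aggregates lay above those with sham, led by 217 CPM in replicate 1, and under DMSO they overlapped. The averaged log2 fold change was 1.95 with SE 0.83 (edgeR, adjusted p = 0.872). That of Adgre1 nascent reads against its other reads was 1.55 with SE 0.82 (edgeR, adjusted p = 1).

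Nascent Spi1 had 143, 166 and 204 CPM in DMSO with sham, 209, 247 and 283 CPM in DMSO with TDP-43, 193, 419 and 304 CPM in C13 with sham, and 263, 222 and 265 CPM in C13 with TDP-43. The lowest value, 143 CPM, was in DMSO with sham, whose values overlapped those of C13 with sham. Those of DMSO with TDP-43 lay above all DMSO with sham values, at a log2 fold change of 0.53 with SE 0.54 (edgeR, adjusted p = 1). Averaged over the drug arms, the log2 fold change of nascent Spi1 with aggregates was 0.12, and with scaling factors taken from the total table it was -0.13. Nascent Csf1r ranged from 7.71 to 214 CPM and nascent Itgam from 0 to 83.6 CPM, with groups that overlapped in every comparison. Without overlap, 1 of 5 nascent genes stood apart for aggregates under DMSO (Spi1, against 10.3% of all genes) and 1 for aggregates under C13 (Adgre1, 13.1%), and 0 did for C13 with aggregates (10.4%) or with sham (14.3%). For C13 against DMSO averaged over the aggregate arms, all 5 nascent genes had a positive log2 fold change with a median of 0.43, and scaled by the total table those of Csf1r and Adgre1 were -0.49 and -0.42.

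Counted by libraries that did not overlap between groups, 4 of 10 genes in total RNA were apart for C13 against DMSO with aggregates, against 13.4% of all tested genes. They did not move one way: Tgfbr1, Mertk and Spi1 were lower and Csf1r higher with C13. In each of the other pairwise comparisons 1 of 10 genes was apart, Aif1 for aggregates under DMSO (11.9% of all genes), Cx3cr1 for aggregates under C13 (12.8%) and Adgre1 for C13 with sham (10.1%). The median log2 fold change of the 10 genes in total RNA was -0.11 for aggregates averaged over the drug arms and -0.02 for C13 averaged over the aggregate arms, against -0.01 and -0.01 over all genes.

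**Figure D3:**
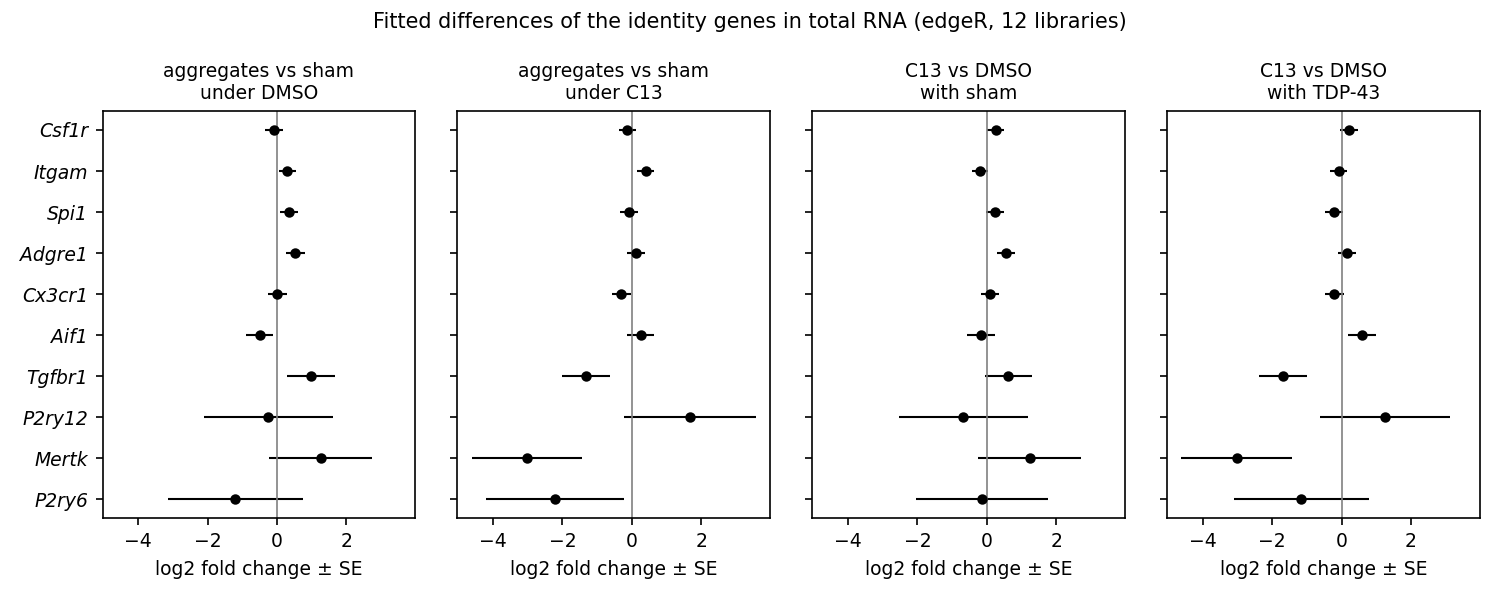
Log2 fold change with its standard error for each identity gene in total RNA in the 4 pairwise comparisons, from 1 edgeR fit of 12 libraries, with genes ordered by mean level. The standard errors are 0.24 to 0.40 for the 6 highest genes and 0.68 to 2.00 for the 4 lowest, and no gene passed the adjusted threshold.

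The gene with the profile most like that of each identity gene over the 12 libraries was taken as that with the smallest root mean square difference of centred log2 values among all tested genes. For Spi1 it was Clpb, at 0.134, while Spi1 itself varied by 0.297 about its own mean. For Cx3cr1 the closest gene was Caprin1, at 0.101. For Csf1r it was Zc3hc1, at 0.112, and for Itgam it was Amotl1, at 0.157. The distances were 0.19 for Aif1 and Trappc5, 0.212 for Adgre1 and Slc35c2, and 0.285 for P2ry6 and Bst1. They were 0.374 for Mertk and Ak8, 0.381 for Tgfbr1 and Flvcr1, and 0.912 for P2ry12 and Flt3l. These values are descriptions over 12 libraries, and steady genes lie close to each other by construction.

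Beyond the 10 genes, markers of the homeostatic state were split. Of 30 further genes, 18 were kept, led by the lysosomal protease Ctss with 861 ± 93.1 CPM, its inhibitor Cst3 with 314 ± 49.0 CPM, the signalling adaptor Tyrobp with 179.8 ± 41.4 CPM and the membrane-shaping Bin1 with 173 ± 44.9 CPM (SD, n = 12). Trem2, a lipid-sensing receptor that signals through that adaptor, had 118 ± 18.5 CPM (SD, n = 12). In contrast, Tmem119 had 0.510 ± 0.553 CPM (SD, n = 12), Siglech had 4 reads in all and Fcrls had 0. With aggregates averaged over drug arms, 13 of 22 tested genes were higher and 9 lower in total RNA, with C13 averaged over aggregate arms 11 and 11. Of them edgeR called 0, with 1 higher for aggregates and 1 lower for C13 at an unadjusted p under 0.05. For the lists of myeloid transcription factors, purinergic genes, engulfment genes and surface genes, edgeR also called 0 in both averaged comparisons of total RNA. Of these 4 lists, 21, 12, 12 and 22 genes were tested in total RNA. At an unadjusted p under 0.05 they held 0, 0, 0 and 2 genes for aggregates and 1, 2, 1 and 1 for C13. Over all genes, 4.73% passed that threshold for aggregates and 4.08% for C13. These shares also apply to the counts of the 22 further homeostatic genes above.

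Markers of other cells were mostly at or near 0. None of the 8 neutrophil, 8 lymphocyte, 8 astrocyte, 8 neuron and 8 fibroblast and mural cell markers was kept, and their summed levels were at most 4.17 CPM in any library. From these lists and the endothelial list, S100a9, Cd3e, Gfap, Snap25, Cldn5 and Col3a1 had 0 reads in all 12 libraries. Other members of the same lists were detected. S100b of the astrocyte list and Map2 and Rbfox3 of the neuron list passed the filter on low counts in total RNA, with means under 1 CPM. Of 8 oligodendrocyte markers 1 was kept, Mbp with 21.8 ± 11.2 CPM, and of 6 endothelial markers 1, Flt1 with 52.2 ± 8.93 CPM (SD, n = 12). The endothelial marker Vwf also passed the filter on low counts but was not kept. Of 7 monocyte markers 1 was kept, the immediate-early gene Nr4a1, while Vcan passed the filter on low counts without being kept and Ly6c2 had 0 reads. Of 9 markers of border-associated and tissue macrophages 3 were kept, Pf4 with 172 ± 40.4 CPM, Clec10a with 67.1 ± 12.4 CPM and Mrc1 with 2.93 ± 1.90 CPM (SD, n = 12), while Cd163 and Lyve1 had 0 reads. The summed level of those 9 was 211 to 279 CPM in DMSO with sham, 218 to 268 in DMSO with TDP-43, 154 to 313 in C13 with sham and 240.3 to 267 in C13 with TDP-43, so that the groups overlapped.

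**Figure D4:**
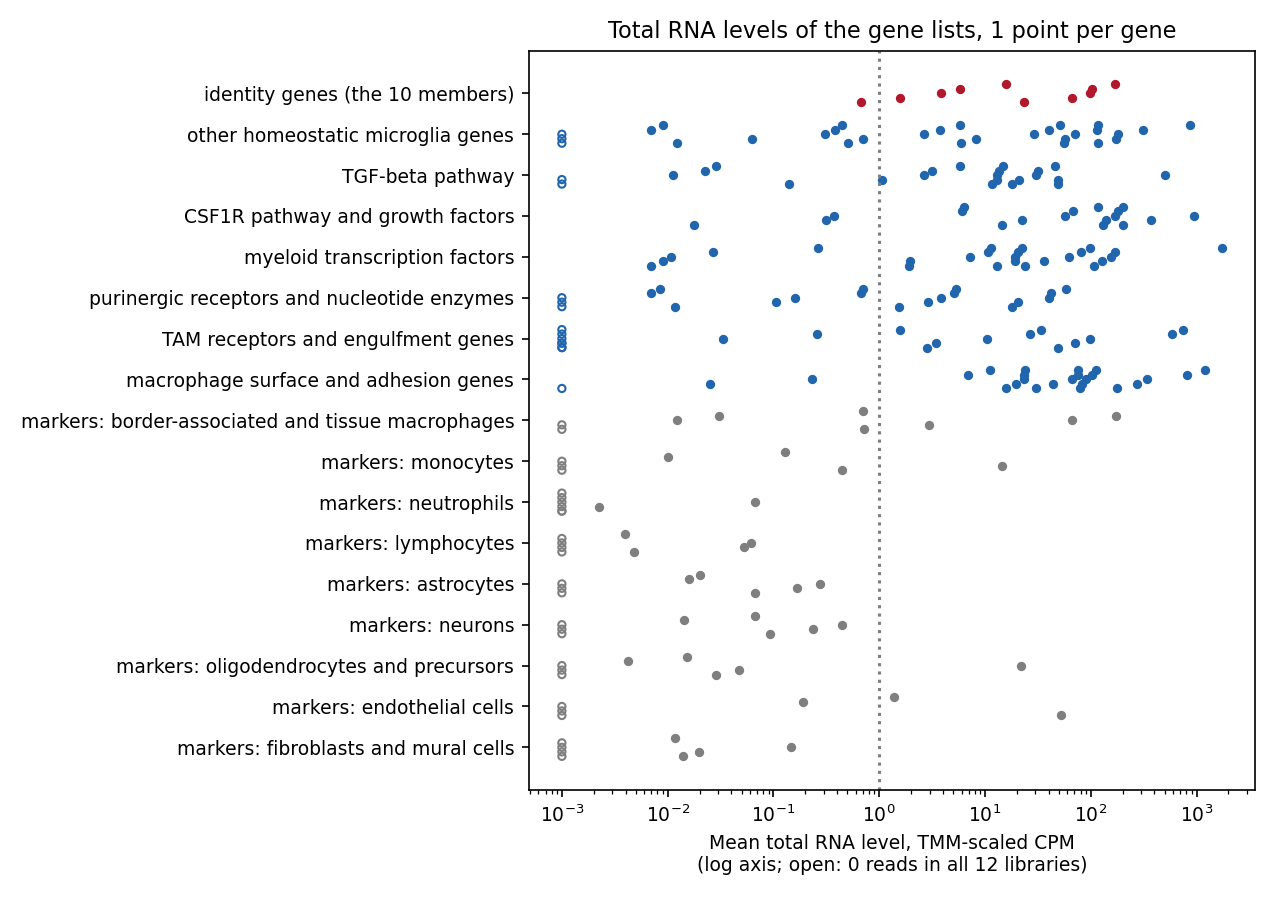
Mean total RNA level over 12 libraries for each gene of the lists, in TMM-scaled CPM on a log axis, with 1 point per gene and open circles for genes with 0 reads in all libraries. Identity genes are red, related lists blue and markers of other cells grey, and the dotted line marks 1 CPM. Of the identity genes, 9 of 10 have means above the line, and the markers of neutrophils, lymphocytes, astrocytes, neurons and fibroblasts all lie below it.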

How the data were processed

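SIM-A9 RNA was labelled with 4-thiouridine, treated with iodoacetamide and made into libraries of mRNA 3′ ends, per the labels' protocols. The authors deposited raw read counts for 30994 Ensembl genes, in a nascent and a total table of the same 12 libraries. GRCm38 is the build named by the submitters' processing notes. Aligner, counter and the rule for calling reads nascent: not given in the sources used here. GENCODE M21 gave symbols for 30940 identifiers. Members, lists and comparisons were chosen with earlier results of these data known.

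After filterByExpr, 11827 genes in total and 7078 in nascent RNA were TMM-scaled. The quasi-likelihood test of edgeR 4.0.16 (R 4.3.3) was fitted to all 12 libraries with 4 group means, and p-values were adjusted by Benjamini-Hochberg over all genes, with a threshold of 0.05. Nascent and other reads were also fitted together with the library as a term. Besides the 10 genes, up to 4 of the highest genes of each list were named, with Tmem119, Sall1, Siglech, Fcrls, Trem2 and each member's nearest gene. 1 gene is not reported here. DESeq2 1.42.0, other scalings, no filter, a replicate block and left-out libraries were alternatives. Scripts were tested on simulated data. Replicates differed beyond sampling noise, with a chi-square per degree of freedom of 70.5 or more.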

Additional observations from a re-analysis of the deposited data

How the results depend on the processing

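Under all 273 alternatives of the identity gene counts, 0 genes were called. The number of kept genes was 8 at 0.5 CPM, unscaled or with DESeq2 size factors, 6 at 5 CPM and 7 with counts divided by their common factor, an alternative chosen after seeing the data. Over all genes, DESeq2 called 17 to 143 per comparison in total and 4 to 75 in nascent RNA, and edgeR with no filter on low counts 10 to 124 and 6 to 38, against 0 to 1 in the edgeR fits reported. Leaving out 1 library gave at most 4.

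Of 520 alternatives to 30 averaged log2 fold changes, 39 reversed the sign, and 16 fold changes never reversed. None was past a threshold, and the cause was not tested. Leaving out each library in turn gave these ranges in total RNA: for aggregates, Tgfbr1 -0.40 to 0.33, Aif1 -0.25 to 0.043 and Csf1r -0.20 to 0.12, and for C13, Spi1 -0.12 to 0.14, P2ry12 -4.22 to 0.71, P2ry6 -1.71 to 1.76 and Cx3cr1 -0.14 to 0.035. In nascent RNA they were, for aggregates, Spi1 -0.0078 to 0.28 and Cx3cr1 -0.29 to 1.66, and for C13, Adgre1 -0.46 to 0.67, Csf1r -0.26 to 0.45, Itgam -0.14 to 1.94 and Cx3cr1 -0.35 to 1.54. With library sizes from the total table, nascent Spi1 was -0.13 with aggregates, and nascent Adgre1 and Csf1r were -0.42 and -0.49 with C13. Without both C13 with sham libraries at the ends of the first component, chosen after seeing the data, total Csf1r was 0.094 with aggregates, and total P2ry12 and nascent Cx3cr1 were -4.25 and -3.38 with C13.

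Replicate numbers were not taken as pairs, since not every pair deviated together: correlations of same-numbered deviations were -0.068 to 0.234, over 0.1 in 5 of 18 pairs, and 8 of 12 libraries correlated best with their own number. With the replicate block, 0 identity genes were called, and over all genes 0 to 2 in total and 0 in nascent RNA. The block turned total P2ry12 to -0.54 with aggregates and -1.57 with C13, total Spi1 to -0.017 with C13 and nascent Cx3cr1 to -0.61 with aggregates. In total RNA, P2ry12, Mertk and P2ry6 had libraries with 0 reads, and their fold changes had the widest errors.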
